A study of Mus musculus with 8 samples.

Results

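The 8 genes described here encode the 5 NF-kB subunits (Rel, Rela, Relb, Nfkb1 and Nfkb2), the IKK kinases (Ikbkb and Chuk) and NIK (Map3k14). They were taken by name from the deposited table of gene counts, where each had 1 row among 24054 rows that name a gene, and all 8 passed the filter on low counts that left 11291 genes for testing. PolyA-selected RNA had been sequenced in 8 libraries from a pair of mouse B cell lines derived from WEHI-231, an immature B lymphoma line whose cells stop dividing and die when their IgM receptor is cross-linked. The groups of 2 libraries each were the WEHI-miR-148a line treated with anti-IgM at 2 ug/ml for 14 h, the same line without stimulation, the WEHI-control line treated likewise, and the WEHI-control line without stimulation. Both are stable lines made from 1 parental line. The labels give neither the number of clones behind each line nor the promoter that drives miR-148a.

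NF-kB transcription factors are dimers of 5 related subunits that bind the kB motif in DNA. Rel (c-Rel), Rela and Relb carry a domain that activates transcription, whereas Nfkb1 and Nfkb2 are made as precursors that are processed to smaller DNA-binding subunits and in precursor form hold other subunits in the cytoplasm. In the canonical route, which B cell receptor signalling uses, the kinase IKK-beta (Ikbkb) marks IkB proteins for destruction and frees dimers of Rela or Rel with the Nfkb1 product. In the non-canonical route NIK (Map3k14) and IKK-alpha (Chuk) drive processing of the Nfkb2 precursor and release Relb dimers. Much of this control acts on proteins, whereas the values below are transcript levels. Constant NF-kB activity, with Rel prominent, is a textbook property of WEHI-231 cells.

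The libraries held 5797035 to 18617609 counts, so that 3 counts correspond to 0.166 to 0.502 CPM (depth-scaled counts, with TMM factors). Anti-IgM libraries of replicate 1 were the smallest, at 5797035 counts in the control line and 5963752 in the miR-148a line. Their unstimulated counterparts held 18617609 and 13425099 counts. In replicate 2 the anti-IgM library was also the smaller in each line. The member with the fewest reads, Relb, had 90 to 512 counts. The first principal component of the 8 libraries carried 49.4% of the variance and the second 21.1%, and that second component separated the sequencing runs, each of which held 1 library of every group. The replicate number follows the run in the labels. Of 7 B cell markers, 6 were in the table and were present in every library, with summed levels of 2365 to 2621 CPM in miR-148a anti-IgM libraries, 1996 to 2113 CPM in unstimulated miR-148a libraries, 1855 to 1992 CPM in control anti-IgM libraries and 1874 to 1967 CPM in unstimulated control libraries. Of 6 myeloid markers 5 were in the table, with summed levels of 8.39 to 10.2 CPM in miR-148a anti-IgM libraries, 0.461 to 0.690 CPM in unstimulated miR-148a libraries, 3.85 to 6.17 CPM in control anti-IgM libraries and 0.388 to 0.722 CPM in unstimulated control libraries. Itgam made up most of the sum in each library and Csf1r the rest, up to 1.29 CPM with anti-IgM, while the defining markers Lyz2, S100a8 and S100a9 were at 0 in all 8 libraries. In bulk RNA, fewer cells of a type and less RNA per cell cannot be told apart.

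The members lie on 5 mouse chromosomes (build GRCm38), and 3 of them share chromosome 19. Rel is at chr11:23736847-23770970 on the minus strand, Relb at chr7:19606217-19629438 on the minus strand, and Nfkb1 at chr3:135584655-135691547 on the minus strand. Rela is at chr19:5637483-5648130 and Nfkb2 at chr19:46304320-46312385, both on the plus strand. The kinase genes lie on the minus strand, Ikbkb at chr8:22659212-22706589, Chuk at chr19:44073335-44107480 and Map3k14 at chr11:103219762-103267472. All 8 are protein-coding. On the opposite strand, Ikbkb overlaps the antisense gene Gm15346 over 9382 bases, and Nfkb2 overlaps AC114539.1 over 1292 bases and Psd over 299 bases. On the same strand, Nfkb1 overlaps Gm43430 over 3897 bases and Map3k14 overlaps 1700028N14Rik over 2613 bases, which no strand setting would tell apart. The strand setting of the authors' counting is not given in the sources used here, so reads in these stretches may be split between the overlapping genes.

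Because 1 line is named for miR-148a, the 3′ untranslated regions of the members were searched for matches to its seed, bases 2 to 8 of the mature microRNA. Chuk and Map3k14 each held 1 match to the seed followed by an A (an 8mer), at bases 986 to 993 of the Chuk region of 1176 bases and at bases 504 to 511 of the Map3k14 region of 1263 bases. The other 6 members held neither an 8mer nor the 7-base match to the seed, and Rela held 1 match to bases 2 to 7 followed by an A. Of 10467 tested genes with a 3′ untranslated region, 3.89% held an 8mer. A match of letters is a description and not a site shown to act. The Mir148a row held 0 or 1 counts in each library, so these libraries do not show the level of the microRNA. The microRNA is given in RefSeq letters (GRCm38.p6, chr6:51269829-51269850, minus strand) with the seed in capitals, and the stretches of mRNA with the 8mer in capitals, since these are the stretches that could pair with the seed.
mmu-miR-148a-3p: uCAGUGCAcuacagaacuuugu
Chuk: tgtggcgtaTGCACTGAattaccttt
Map3k14: gcactagaaTGCACTGAgccttcagg

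Rel, Relb and Nfkb1 fell with anti-IgM in both lines and Nfkb2 fell in the miR-148a line, while Rela passed the test in neither. Among the kinases, Map3k14 was the only member higher with anti-IgM when the response was averaged over the lines, and Ikbkb and Chuk did not pass the test. No member was called between the lines in a comparison without the replicate block. A difference was called where the adjusted p of edgeR's quasi-likelihood F test, with Benjamini-Hochberg adjustment over all genes tested, was below 0.05. In the miR-148a line 4 of 8 members were called, all lower, against a background of 28.7% of all genes called, 14.0% lower and 14.7% higher. In the control line 3 of 8 were called, all lower, against 17.0% called, 7.45% lower and 9.60% higher. Averaged over the lines, 4 members were called lower and 1 higher, against 40.9% of all genes called, 19.9% lower and 21.0% higher. The median log2 fold change of the 8 members was −0.36 in the miR-148a line and −0.08 in the control line, beside 0.0017 and 0.013 over all genes tested in these lines. The 2 responses come from different libraries but share 1 estimate of the spread.

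**Figure D1:**
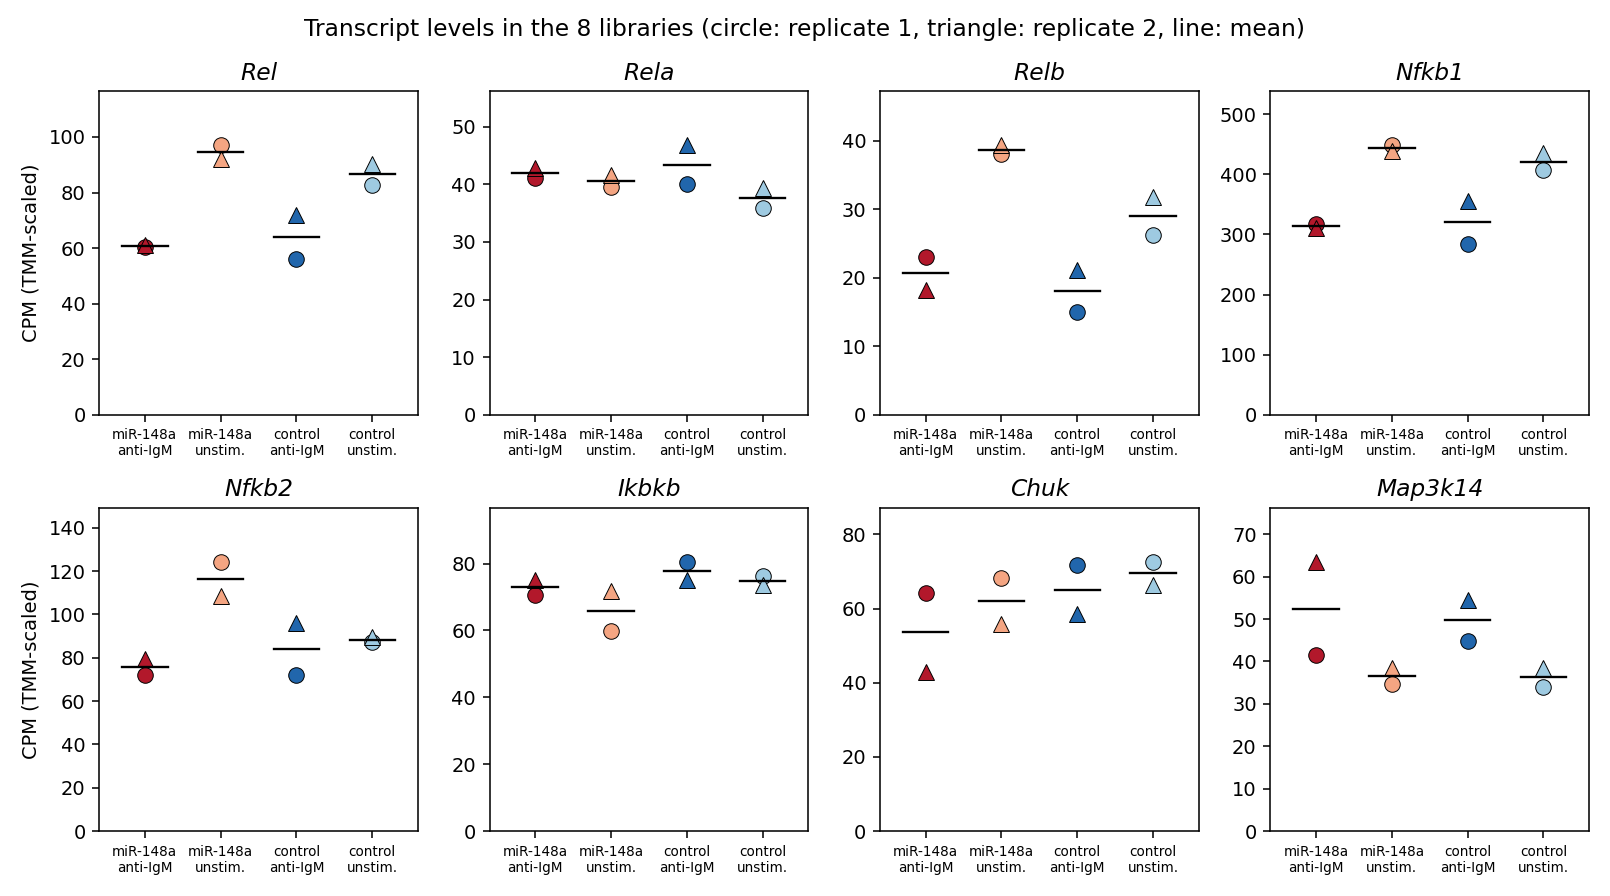
Levels of the 8 genes in CPM, scaled with TMM factors, in each library of the 4 groups; circles are replicate 1, triangles replicate 2 and the line is the mean of 2 libraries. For Rel, Relb and Nfkb1 all 4 anti-IgM libraries lie below all 4 unstimulated libraries, and for Map3k14 all 4 lie above. The share of all genes that separate like this was not counted.

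Rel, whose dimers with the Nfkb1 product are a main form of NF-kB in B cells, was lower with anti-IgM in both lines. It had 60.4 and 61.0 CPM in miR-148a anti-IgM libraries, against 97.0 and 92.0 CPM in unstimulated miR-148a libraries. In the control line it had 55.9 and 71.7 CPM with anti-IgM, against 82.7 and 90.3 CPM without stimulation. The anti-IgM libraries of both lines stood below all 4 unstimulated libraries, with no overlap. How many of all genes tested separate in this way was not counted, here or for the members below. The log2 fold change was −0.64 ± 0.13 (SE) in the miR-148a line (adjusted p = 0.00620, edgeR) and −0.43 ± 0.13 in the control line (adjusted p = 0.0488, edgeR), and −0.53 ± 0.09 averaged over the lines (adjusted p = 0.00171, edgeR). The difference between the 2 responses, −0.21 (95% interval −0.62 to 0.20), was not called.

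Relb, the partner of the processed Nfkb2 product, had the lowest averaged log2 change of the 8 members. It had 23.0 and 18.3 CPM in miR-148a anti-IgM libraries, against 38.1 and 39.4 CPM in unstimulated miR-148a libraries. In the control line the levels were 15.1 and 21.1 CPM with anti-IgM, against 26.2 and 31.8 CPM without. The 4 anti-IgM libraries again lay below the 4 unstimulated ones, and in the miR-148a line Relb was at 0.527 of its unstimulated level. The fitted change was −0.92 ± 0.18 in the miR-148a line (adjusted p = 0.00497, edgeR), −0.64 ± 0.18 in the control line (adjusted p = 0.0390, edgeR) and −0.78 ± 0.13 on average (adjusted p = 0.00129, edgeR).

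Nfkb1 had the most reads of the members. Its levels were 318 and 311 CPM in miR-148a anti-IgM libraries, against 448 and 439 CPM in unstimulated miR-148a libraries. The control line had 285 and 356 CPM with anti-IgM, against 407 and 435 CPM without. No anti-IgM library reached the lowest unstimulated library. The log2 change was −0.50 ± 0.11 in the miR-148a line (adjusted p = 0.0112, edgeR), −0.39 ± 0.11 in the control line (adjusted p = 0.0444, edgeR) and −0.45 ± 0.08 on average (adjusted p = 0.00239, edgeR).

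The 3 control-line calls lie close to the threshold. In fits that left out 1 library at a time, these calls were lost without unstimulated control replicate 1 or 2 or control anti-IgM replicate 1. They were also lost without unstimulated miR-148a replicate 1 or 2. Each of those fits called a smaller share of all genes in this response than the main fit. Not all 3 calls were kept without miR-148a anti-IgM replicate 1 or 2, and those fits called a larger share of all genes than the main fit. None of the 3 was called in a fit of the 4 control libraries alone, where 14.2% of all genes were called. With the replicate number as a block, which pairs libraries of 1 sequencing run, Rel reached adjusted p = 0.00444, Relb 0.00452 and Nfkb1 0.00247 in the control line (edgeR), where 34.8% of all genes were called. In the miR-148a line, some of the 4 calls were lost without unstimulated miR-148a replicate 1 or miR-148a anti-IgM replicate 2. The Rel change was called in each of these fits. Both fits called a smaller share of all genes than the main fit.

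Nfkb2 fell with anti-IgM in the miR-148a line, and its values in the control line overlapped. The miR-148a anti-IgM libraries had 72.2 and 79.3 CPM, against 124 and 109 CPM in unstimulated miR-148a libraries. The control line had 72.0 and 95.9 CPM with anti-IgM, against 87.1 and 89.6 CPM without, so that the unstimulated values lay between the stimulated ones. The log2 change was −0.62 ± 0.14 in the miR-148a line (adjusted p = 0.0119, edgeR) and −0.06 ± 0.14 in the control line (adjusted p = 0.799, edgeR; 95% interval −0.39 to 0.26). The difference between the responses was −0.55 ± 0.20, with an unadjusted p of 0.0228 but adjusted p = 0.9996 (edgeR), and adjusted p = 0.196 with the replicate block, so a difference between the lines was not called. The averaged change of −0.34 ± 0.10 (adjusted p = 0.0245, edgeR) was lost without any of 5 single libraries, with adjusted p of 0.0513 without unstimulated control replicate 1, 0.0634 without unstimulated control replicate 2, 0.0606 without control anti-IgM replicate 1, 0.0899 without unstimulated miR-148a replicate 1 and 0.0585 without miR-148a anti-IgM replicate 1.

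Without stimulation, Nfkb2 stood higher in the miR-148a line, at 124 and 109 CPM against 87.1 and 89.6 CPM in the control line, a log2 difference of 0.40 ± 0.14. This did not pass the test (adjusted p = 0.301, edgeR) but was called with the replicate block (0.40 ± 0.11, adjusted p = 0.0360, edgeR), where 7.29% of all genes were called. Within sequencing runs the difference was 0.51 in the first and 0.28 in the second. Psd, the gene that overlaps Nfkb2 on the other strand, fell with anti-IgM in the miR-148a line as well. Its log2 change was −0.85 ± 0.19 in the miR-148a line (adjusted p = 0.00959, edgeR) and −0.16 ± 0.19 in the control line (adjusted p = 0.615, edgeR), and its unstimulated difference between the lines was 0.87 ± 0.18 (adjusted p = 0.0794, edgeR). Its row held 36 to 209 counts per library, against 430 to 1622 for Nfkb2, and its part in the Nfkb2 values was not tested.

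Rela, the canonical partner of the Nfkb1 product, showed no called change. It had 41.1 and 42.9 CPM in miR-148a anti-IgM libraries, against 39.5 and 41.7 CPM in unstimulated miR-148a libraries. The control line had 40.0 and 46.8 CPM with anti-IgM, against 35.9 and 39.4 CPM without. The groups overlapped in the miR-148a line, and in the control line both stimulated libraries were above both unstimulated ones. Within sequencing runs the stimulated library was the higher in all 4 pairs, by 0.06 and 0.04 in the miR-148a line and 0.16 and 0.25 in the control line (log2). How many of all genes keep the same direction in all 4 pairs was not counted, here or for Ikbkb and Chuk below. The averaged log2 change was 0.13 with a 95% interval of −0.05 to 0.32 (adjusted p = 0.221, edgeR).

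**Figure D2:**
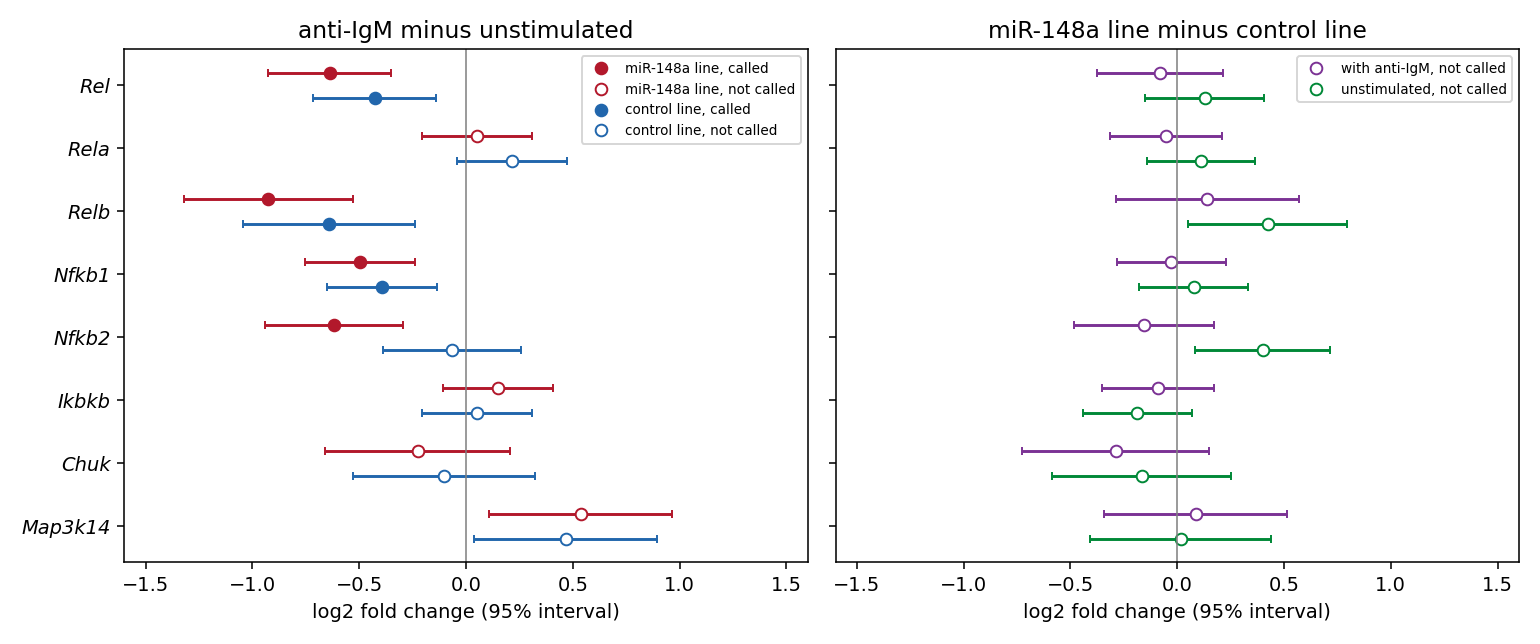
Log2 fold changes of the 8 genes with 95% intervals: left, anti-IgM minus unstimulated in the miR-148a line (red) and the control line (blue); right, miR-148a line minus control line with anti-IgM (purple) and unstimulated (green). Filled points passed the test; Rel, Relb and Nfkb1 are filled in both lines on the left, Nfkb2 in the miR-148a line, and no point is filled on the right.

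Counts of different genes can be set side by side within a library as ratios, which no scaling factor touches. Reads of Rel per read of Rela averaged 1.44 in miR-148a anti-IgM libraries and 2.33 in unstimulated miR-148a libraries, and 1.47 in control anti-IgM libraries and 2.30 in unstimulated control libraries. Relb per Rela averaged 0.493 in miR-148a anti-IgM libraries and 0.954 in unstimulated miR-148a libraries, and 0.414 in control anti-IgM libraries and 0.768 in unstimulated control libraries. For both of these the 4 stimulated libraries lay below the 4 unstimulated ones. Rel per Nfkb1 spanned 0.190 to 0.216 over all 8 libraries, with the 4 stimulated libraries, at 0.190 to 0.202, below the 4 unstimulated ones, at 0.203 to 0.216. Nfkb2 per Nfkb1 averaged 0.241 in miR-148a anti-IgM libraries and 0.262 in unstimulated miR-148a libraries, but 0.261 in control anti-IgM libraries and 0.210 in unstimulated control libraries. All of these are descriptions, with no test, and how many ratios of other genes separate in this way was not counted.

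Among the kinases, Map3k14 (NIK, the kinase that starts the non-canonical route) was higher with anti-IgM. It had 41.4 and 63.5 CPM in miR-148a anti-IgM libraries, against 34.8 and 38.4 CPM in unstimulated miR-148a libraries. In the control line it had 44.9 and 54.5 CPM with anti-IgM, against 34.1 and 38.4 CPM without. All 4 stimulated libraries were above all 4 unstimulated ones, and replicate 2 was the higher one in every group. Averaged over the lines the log2 change was 0.50 ± 0.13 (adjusted p = 0.0157, edgeR), a level 1.42 times the unstimulated one.

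Within each line the Map3k14 change did not pass the test, at 0.54 ± 0.19 in the miR-148a line (adjusted p = 0.0617, edgeR) and 0.47 ± 0.19 in the control line (adjusted p = 0.125, edgeR). With the replicate block it was called in both, at adjusted p = 0.00159 in the miR-148a line and 0.00710 in the control line (edgeR), where 46.1% and 34.8% of all genes were called. Within sequencing runs the change was 0.25 and 0.72 in the miR-148a line and 0.39 and 0.50 in the control line. The averaged call was lost in the fits without unstimulated control replicate 1 (adjusted p = 0.0516), unstimulated miR-148a replicate 1 (0.0570) or control anti-IgM replicate 2 (0.0609). The 8mer match in Map3k14 stood beside a log2 difference between the lines of 0.09 (95% interval −0.34 to 0.52) with anti-IgM and 0.02 (−0.41 to 0.44) without stimulation, and neither was called.

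Ikbkb, the catalytic subunit of the canonical route, ranged from 59.8 to 80.5 CPM over the 8 libraries and was called in no comparison. It had 70.6 and 75.2 CPM in miR-148a anti-IgM libraries, against 59.8 and 71.7 CPM in unstimulated miR-148a libraries. The control line had 80.5 and 75.1 CPM with anti-IgM, against 76.1 and 73.5 CPM without. The groups overlapped in both lines, although within sequencing runs the stimulated library was the higher in all 4 pairs, by log2 differences of 0.03 to 0.24. The averaged log2 change was 0.10 (95% interval −0.08 to 0.28; adjusted p = 0.349, edgeR).

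Chuk, the IKK-alpha gene, had a larger SD between replicates than Ikbkb in each of the 4 groups. It had 64.1 and 43.0 CPM in miR-148a anti-IgM libraries, against 68.2 and 55.8 CPM in unstimulated miR-148a libraries. The control line had 71.7 and 58.5 CPM with anti-IgM, against 72.6 and 66.4 CPM without. The groups overlapped in both lines, and replicate 1 was the higher in each of the 4 groups. Within sequencing runs Chuk was lower with anti-IgM in all 4 pairs, by log2 differences of −0.09 and −0.37 in the miR-148a line and −0.02 and −0.18 in the control line. The averaged response was −0.17 with a 95% interval of −0.47 to 0.14 (adjusted p = 0.360, edgeR).

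Averaged over the conditions, Chuk was −0.23 ± 0.13 in the miR-148a line relative to the control line, which did not pass the test (adjusted p = 0.357, edgeR). With the replicate block the difference was −0.24 ± 0.07 and was called lower (adjusted p = 0.0292, edgeR), in a fit where 22.3% of all genes were called. Within sequencing runs the line difference was −0.12 in the first and −0.35 in the second. In neither condition alone was Chuk called with the block, at adjusted p = 0.0645 with anti-IgM and 0.341 without stimulation (edgeR). Chuk and Map3k14 both hold an 8mer match to the microRNA seed. Of these only Chuk was called, in the blocked fit and averaged over the conditions. Whether the match has a part in this difference was not tested.

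Between the lines, 0 of 8 members were called with anti-IgM, beside 2.52% of all genes, and 0 of 8 without stimulation, beside 0.487% of all genes. Averaged over the conditions the count was again 0 of 8, beside 6.31% of all genes. The difference between the 2 anti-IgM responses was called for 0 of 8 members and 0% of all genes by edgeR. An unadjusted p below 0.05 (edgeR) was seen for 484 genes, Nfkb2 among them, or 4.29% of those tested. That fit had no replicate block, so its spread includes the difference between runs. The share therefore cannot be set against what the threshold gives by chance. DESeq2 called 1 gene and edgeR with the replicate block 11 genes in that comparison, none of them a member. Relb without stimulation was the other member with an interval away from 0 between the lines, with a log2 difference of 0.42 (95% interval 0.05 to 0.80; adjusted p = 0.358, edgeR, and 0.0617 with the replicate block).

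Levels of different genes were compared per kilobase of the longest transcript that the GENCODE annotation pairs with a RefSeq record. Over the 8 libraries Nfkb1 averaged 91.1 CPM per kb and Nfkb2 29.0, and both lay above the highest value of the other 6 members in every library. Ikbkb averaged 18.3, Chuk 17.9 and Rela 15.1 CPM per kb, and their ranges overlapped. Relb followed at 12.0, Map3k14 at 10.3 and Rel at 10.2 CPM per kb, but the order of these 3 differed between conditions. With anti-IgM, Map3k14 had the highest group means of them, at 12.4 in the miR-148a line and 11.7 in the control line, beside Relb at 9.35 and 8.19 and Rel at 8.13 and 8.55. Without stimulation it had the lowest, at 8.61 in the miR-148a line and 8.54 in the control line, beside Relb at 17.5 and 13.1 and Rel at 12.7 and 11.6. The place of Rel depends on the length used. Its transcript has 7466 bases, of which 1764 are coding and 5418 are 3′ untranslated, and per kilobase of coding sequence it averaged 43.3 CPM, second after Nfkb1 at 129. If cells use a shorter Rel transcript, the per-length level above understates it.

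**Figure D3:**
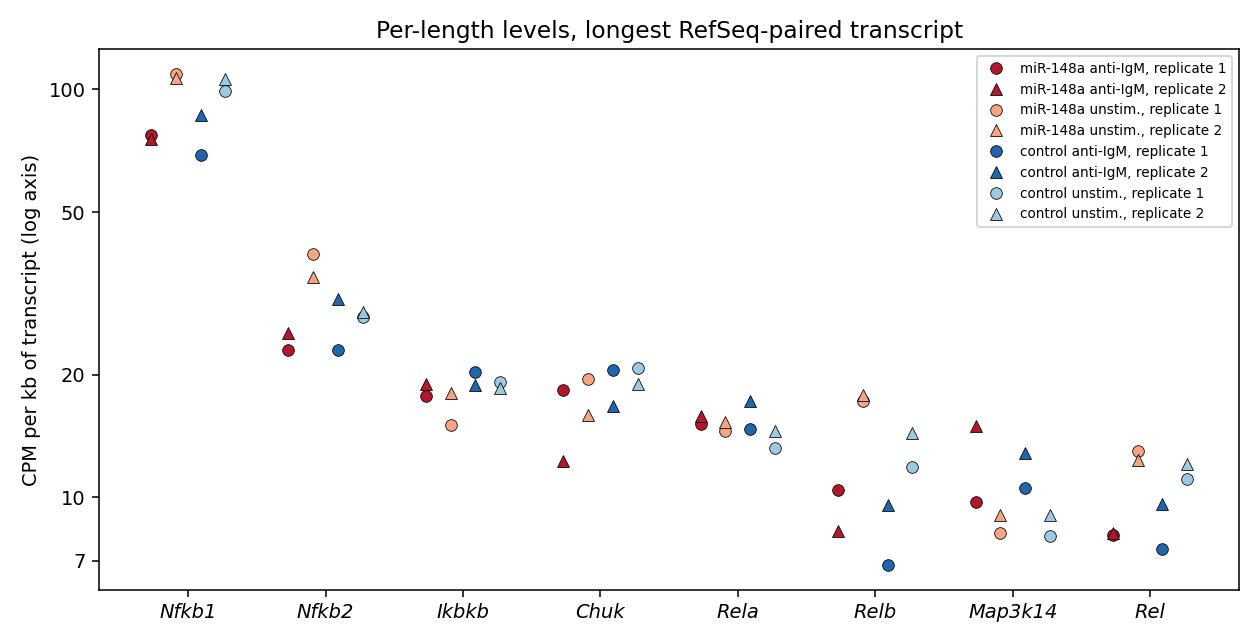
Per-length levels in CPM per kb of the longest RefSeq-paired transcript on a log axis, genes ordered by their mean over the 8 libraries; colours are groups, circles replicate 1 and triangles replicate 2. Nfkb1 lies between 69.1 and 109 and Nfkb2 between 22.9 and 39.6, above the other 6 genes.

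On the per-length scale, Rela took a larger share of the summed subunit transcripts after anti-IgM, at 11.6% ± 0.394 in miR-148a anti-IgM libraries and 7.87% ± 0.481 in unstimulated miR-148a libraries (SD, n = 2 each). The control line gave 11.7% ± 0.657 with anti-IgM and 8.21% ± 0.115 without (SD, n = 2 each). Nfkb1 held 56.7% to 60.5% of the sum as group means in all 4 groups. Shares of 1 sum are tied to each other, so Rela can gain share with no change in its own level.

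Promoter windows (250 bases before to 50 after the start, RefSeq, GRCm38.p6) were at hand for 5 of the 8 members, Rel, Rela, Nfkb2, Chuk and Map3k14. They were searched on both strands for the kB consensus, and 8.46% of all 32851 windows held at least 1 match. The Rel window held 1 run of overlapping matches and the 3 Nfkb2 windows held 2, 2 and 1 separate runs. Nfkb2 windows 2 and 3 overlap (chr19:46305445-46305744 and chr19:46305680-46305979). The match GGGACTTTCC at bases 261 to 270 of window 2 and bases 26 to 35 of window 3 is 1 site, counted in both. The Rela, Chuk and Map3k14 windows held none. The 150 bases before the start are shown for Rel, which fell in both lines, for Nfkb2, which fell in the miR-148a line and was not called in the control line, and for Rela, which was called in neither. Capitals mark the matches. The Rel stretch is chr11:23770970-23771119 (minus strand), the stretch from the first Nfkb2 window chr19:46304587-46304736 and the Rela stretch chr19:5637391-5637540 (both plus strand).
Rel: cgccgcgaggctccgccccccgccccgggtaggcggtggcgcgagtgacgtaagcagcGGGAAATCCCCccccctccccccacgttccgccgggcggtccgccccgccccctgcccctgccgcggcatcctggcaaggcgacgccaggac
Nfkb2: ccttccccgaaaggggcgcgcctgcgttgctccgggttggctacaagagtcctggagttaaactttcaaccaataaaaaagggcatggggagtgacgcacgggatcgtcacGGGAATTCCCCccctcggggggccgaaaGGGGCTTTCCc
Rela: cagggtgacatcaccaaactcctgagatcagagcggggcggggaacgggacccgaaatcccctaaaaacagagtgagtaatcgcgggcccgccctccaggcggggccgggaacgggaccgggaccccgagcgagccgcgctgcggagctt
The letters say nothing of whether a factor binds there in these cells.

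The genes whose levels followed each member most closely over the 8 libraries were found by Pearson's r on log2 CPM among 9698 genes. All points share the 4 groups, the 2 runs and the library depth, so these values describe likeness only. Rel was most like Nfkb1 (r = 0.996) and Myc (r = 0.994), and Nfkb1 was most like Myc (r = 0.997) and Rel. Relb was most like Mia3 (r = 0.987), and its r with Rel was 0.934 and with Nfkb1 0.944. Nfkb2 was most like Cpsf7 (r = 0.963), with r = 0.869 to Rel. Map3k14 was most like Gna11 (r = 0.989), and its r with Rel was −0.65. Rela was most like Fbrsl1 (r = 0.975), Ikbkb like Saal1 (r = 0.972) and Chuk like Poc5 (r = 0.992), while Ikbkb and Chuk had r = −0.09 with each other.

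The neighbours of these genes in the pathway moved in both directions with anti-IgM. Their counts stand beside 14.0% of all genes called lower and 14.7% higher in the miR-148a line, and 7.45% lower and 9.60% higher in the control line. Of 7 IkB proteins, which hold NF-kB dimers in the cytoplasm or bind them in the nucleus, 3 were called lower and 1 higher in each line. The log2 change of Nfkbid was −1.94 in the miR-148a line and −1.69 in the control line. That of Nfkbie was −1.73 in the miR-148a line and −1.18 in the control line, and that of Nfkbia (IkB-alpha) −1.13 in the miR-148a line and −0.84 in the control line. Bcl3, which binds dimers of processed Nfkb1 or Nfkb2 in the nucleus, rose by 1.11 in the miR-148a line and 0.83 in the control line. Each of these 4 genes had a larger change in size than Relb in the same line, though the difference between genes was not tested. The median log2 change of the 7 was −0.18 in the miR-148a line and −0.06 in the control line.

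Of 8 other kinase partners (the IKK scaffold Ikbkg, the kinases Ikbke, Tbk1, Map3k7 and Map3k8, and the adaptors Tab1, Tab2 and Tab3), 0 were called in either line by edgeR, and 1 was called lower in the miR-148a line with the replicate block. Their median was −0.12 in the miR-148a line and −0.11 in the control line. On the non-canonical route 7 of 8 genes were tested, and 3 were called lower and 1 higher in each line. Traf3, which holds NIK for degradation, had log2 changes of −1.19 in the miR-148a line and −1.01 in the control line. Birc3, a ligase of that complex, had −0.73 in the miR-148a line and −0.82 in the control line, and the receptor Cd40 had −1.08 in the miR-148a line and −0.92 in the control line. The receptor Tnfrsf1b rose by 1.66 in the miR-148a line and 1.53 in the control line. With the replicate block 5 of the 7 were called lower and 2 higher in the miR-148a line, in a fit that called 46.1% of all genes.

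Of 11 genes from the B cell receptor to IKK, 5 were called higher and 1 lower in the miR-148a line and 0 higher and 1 lower in the control line. The adaptor Blnk rose by 0.84 and Bcl10 by 0.43 in the miR-148a line. In the control line Blnk had 0.36 and Bcl10 0.13, neither called. The log2 change of the kinase Prkcb was −0.44 in the miR-148a line (called) and −0.47 in the control line (adjusted p = 0.0502, edgeR). That of the kinase Syk was −0.30 in the miR-148a line (adjusted p = 0.0550, edgeR) and −0.58 in the control line (called). The blocked fit called both kinases lower in both lines. With the replicate block the counts in the miR-148a line were 5 higher and 2 lower, beside 46.1% of all genes called. In the control line they were 2 higher and 3 lower, beside 34.8% of all genes called. No gene of the list was called for the difference between the responses. Among 7 ubiquitin editors and feedback genes, Tnfaip3 (A20, which switches off signalling to IKK) had log2 changes of −1.74 in the miR-148a line and −1.41 in the control line. Cyld, Traf1 and Tnip2 rose in both lines, by 0.68, 0.72 and 0.48 in the miR-148a line and 0.52, 0.57 and 0.62 in the control line. In the blocked fit 4 of the 7, not 3, were called higher in the control line, where 1989 of 11291 genes were called higher.

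Of 28 target genes of NF-kB known from B cells, 26 were tested. In the miR-148a line 11 were called lower and 2 higher, and in the control line 8 were called lower and 4 higher, with medians of −0.63 in the miR-148a line and −0.21 in the control line. The log2 change of Myc was −2.08 in the miR-148a line and −1.50 in the control line, and that of Irf4 −1.87 in the miR-148a line and −1.40 in the control line. The receptor Ccr7 rose by 2.24 in the miR-148a line and 1.65 in the control line, and Il6 by 2.41 in the control line, against a log2 change of 2.00 in the miR-148a line that was not called (adjusted p = 0.0994, edgeR), at levels of a few CPM or less. Cd83 had a change of −4.06 in the miR-148a line, with 0.277 to 0.493 CPM in the stimulated libraries, and −1.53 in the control line (adjusted p = 0.0675, edgeR; called with the replicate block, adjusted p = 0.0131). With the replicate block 15 of the 26 were called lower and 4 higher in the miR-148a line, and 10 lower and 4 higher in the control line. Of all 11291 genes, that fit called 2636 lower and 2569 higher in the miR-148a line. In the control line it called 1940 lower and 1989 higher.

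**Figure D4:**
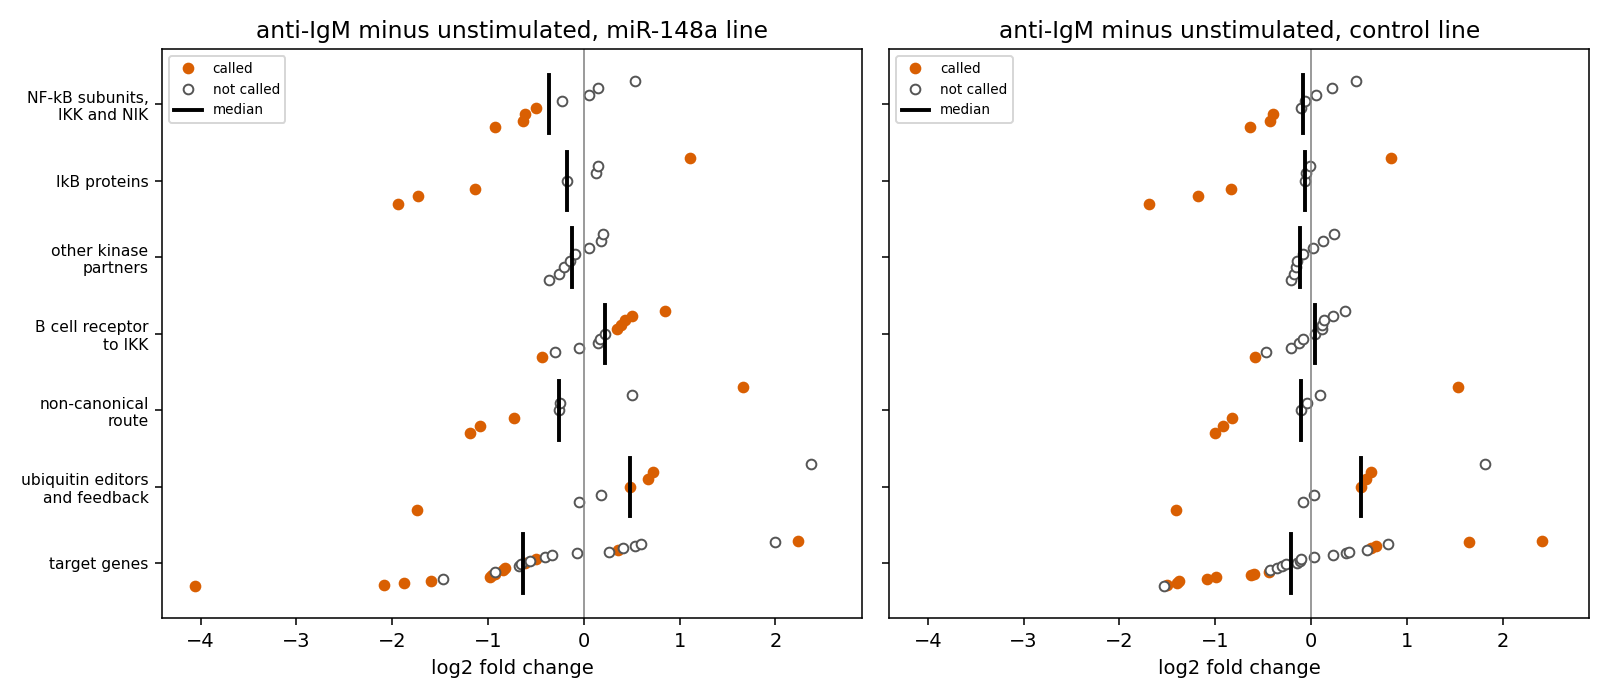
Log2 fold changes with anti-IgM in the miR-148a line (left) and the control line (right) for the 8 genes and 6 lists of pathway genes; each point is a gene, filled where it passed the test, and the line is the list's median. The IkB proteins, the non-canonical route, the ubiquitin editors and the target genes hold called genes on both sides of 0 in both lines. The genes from the B cell receptor to IKK do so in the miR-148a line only, and the other kinase partners hold none.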

How the data were processed

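The authors deposited 1 table of expected counts per gene symbol, which are estimated, not normalised and not always whole (9.54% to 12.8% of a library's values). The submitters' processing notes list CASAVA 1.8, cutadapt and TopHat2 2.0.13, then Bowtie2, Partek 6.15.0730 and an edgeR of unnamed version, and give mm10 and GRCm38 as builds. No source used here gives the annotation or the strand setting of the counting, although the labels name a directional kit. Of 24081 rows, 27 with calendar dates for names (0.213% to 0.235% of counts) were left out.

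Expected counts were rounded and tested with edgeR 4.0.16 (R 4.3.3): TMM factors, filterByExpr by group, 4 group means over 8 libraries, the quasi-likelihood F test, 7 contrasts, and Benjamini-Hochberg adjustment over 11291 genes with a threshold of 0.05. Errors after ± on log2 values are standard errors, and intervals are 95% intervals. CPM are scaled with TMM factors; per-length values divide them by transcript length. The coefficient of variation between replicates came to 11.1% (5.98% in the blocked fit). The script was tested on simulated data. Alternatives were median-ratio (RLE) factors, no filter, DESeq2 1.42.0, the replicate block, the 4 libraries of a response alone, leaving out each library, and, added after seeing the data, coding length. In the named lists up to 4 called genes per response were named by size of change, except 1 that is not reported here.

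Same-numbered libraries deviated together in all 6 pairs of groups (r across genes 0.495 to 0.569), so the numbers pair libraries by run, and blocked values stand beside results whose call they change. The labels do not say whether replicates were separate cultures, and p-values then reflect only the spread between these libraries. Within each group that spread exceeded sampling noise (mean chi-square per gene 9.30 to 13.3 on 1 degree of freedom). Counting floors cover counting error only. The members and lists were chosen with earlier results of these data known.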

Additional observations from a re-analysis of the deposited data

How the results depend on the processing

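Of 704 member values under other settings, 629 kept direction and call, 32 lost the call, 9 gained it, and 34 changed sign, none of them called. Against 3 members called in the control response, 0 were called with the 4 control libraries alone, where 14.2% of all genes were called. Leaving out single libraries gave 2 to 5 against 4 in the miR-148a response and 3 to 5 against 5 in the averaged response. The replicate block called 1 member, against 0 without it, between the unstimulated lines (Nfkb2) and 1 between the lines on average (Chuk). It also added Map3k14 to the calls of each response. Of all genes, the blocked fit called 7.29% between the unstimulated lines and 22.3% between the lines on average. It called 46.1% in the miR-148a response and 34.8% in the control response. Without the filter on low counts 1 member was called higher in the miR-148a response, against 0 in the main fit. That fit called 21.4% of all genes. DESeq2 also called 1 member higher there, beside 24.7% of all genes. The number of libraries, 2 a group, limits the precision, as the printed intervals show. The cause of the changes was not tested.

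Sign changes concern values that were not called, and not only small ones. The Relb difference between the responses, for example, was −0.28 in the main fit. Without the filter on low counts the log2 change of Ikbkb in the control line was −0.0059. The unstimulated line difference of Map3k14 was −0.021 without that filter, −0.00049 by DESeq2 and −0.072 to 0.088 without single libraries. Leaving out single libraries gave control-line responses of −0.30 to 0.12 for Nfkb2 and −0.25 to 0.040 for Chuk, and miR-148a responses of −0.53 to 0.046 for Chuk. The line difference with anti-IgM ran from −0.24 to 0.12 for Rel, −0.16 to 0.071 for Rela, −0.055 to 0.43 for Relb, −0.18 to 0.14 for Nfkb1, −0.34 to 0.075 for Nfkb2 and −0.27 to 0.34 for Map3k14. The averaged line difference ran from −0.058 to 0.12 for Rel, −0.023 to 0.091 for Rela, −0.052 to 0.11 for Nfkb1 and −0.13 to 0.18 for Map3k14. The difference between the responses ran from −0.48 to 0.011 for Relb, −0.26 to 0.067 for Nfkb1, −0.029 to 0.23 for Ikbkb, −0.43 to 0.15 for Chuk and −0.29 to 0.32 for Map3k14. The direction of the called responses of Rel, Relb and Nfkb1 held under every setting tried.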
